A study of Mus musculus with 12 samples.

Results

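The genes described here are 3 metallothioneins (Mt1, Mt2 and Mt3) and 7 antioxidant genes known as targets of the transcription factor Nrf2 (Hmox1, Nqo1, Gclc, Gclm, Srxn1, Txnrd1 and Slc7a11). They were taken by symbol from the 54532 genes of the deposited count table, and all 10 were found once each and had enough counts to be tested. RNA was sequenced from the ventral hippocampus of mice with wild-type genotype, in 12 libraries. The 3 SSDS-shACOT12 libraries came from mice with hepatic knockdown of ACOT12, an enzyme that splits acetyl-CoA into acetate, that were exposed to SSDS. The 3 SSDS-GFP libraries came from mice that received AAV8-eGFP and underwent SSDS, the 3 CSDS libraries from mice exposed to CSDS, and the 3 control libraries from mice with no treatment. Chronic social defeat stress and its subthreshold form are the usual meanings of CSDS and SSDS, which the labels leave unexpanded. The column names of both SSDS groups carry TBG, the usual short name of a liver promoter. No virus is named for the CSDS and control mice, so virus and SSDS cannot be told apart when an SSDS group is set against control. Strain, age, sex, times and any pooling of animals are not given in the sources used here. Whether each replicate is its own animal is not given, and p-values therefore measure only the spread between these libraries, which may be technical.

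Metallothioneins are small proteins rich in cysteine that bind zinc and copper. Mt1 and Mt2 are made in many tissues and rise with metals, through the metal-responsive factor Mtf1, and with glucocorticoids, while Mt3 is the form enriched in brain. Nrf2, encoded by Nfe2l2, is held in the cytoplasm and marked for degradation by Keap1; oxidants and electrophiles free it to bind antioxidant response elements together with small Maf proteins. Its targets make glutathione, reduce thioredoxin and peroxiredoxins, and break down quinones and haem.

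The metallothioneins are shown first as sequence, because their cysteine codons carry their metal binding and because their likeness bears on how reads can be assigned. The coding sequences below are from GENCODE M21 (GRCm38), 5′ to 3′, with every cysteine codon (TGC or TGT) in capitals.
Mt1: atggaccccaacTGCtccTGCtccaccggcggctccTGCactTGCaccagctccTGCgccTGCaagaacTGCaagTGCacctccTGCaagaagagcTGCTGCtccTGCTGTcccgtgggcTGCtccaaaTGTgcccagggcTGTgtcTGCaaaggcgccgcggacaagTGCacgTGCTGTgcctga
Mt2: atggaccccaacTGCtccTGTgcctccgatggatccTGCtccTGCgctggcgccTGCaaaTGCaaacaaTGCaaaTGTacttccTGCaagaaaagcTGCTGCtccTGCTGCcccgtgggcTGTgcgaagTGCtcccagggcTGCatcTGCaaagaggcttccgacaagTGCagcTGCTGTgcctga
Mt3: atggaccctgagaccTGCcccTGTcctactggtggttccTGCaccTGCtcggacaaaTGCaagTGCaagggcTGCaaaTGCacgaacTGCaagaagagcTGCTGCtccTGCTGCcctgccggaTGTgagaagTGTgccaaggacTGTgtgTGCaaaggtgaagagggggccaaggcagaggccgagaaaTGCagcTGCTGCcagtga
Each coding sequence held 20 cysteine codons, 16 of them TGC and 4 TGT. Mt1 and Mt2 had 61 codons before the stop and Mt3 had 68. Mt1 and Mt2 were identical at 148 of 186 aligned bases (79.6%), with a longest shared run of 20 bases. Mt3 was identical to Mt1 at 66.2% and to Mt2 at 67.6% of 207 aligned positions. All 3 genes lie within one cluster on chromosome 8 on the + strand (mm10, which is GRCm38): Mt3 at 94152607 to 94154146, Mt2 at 94172664 to 94173568 and Mt1 at 94179082 to 94180327.

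Promoter windows of 300 bases that span an annotated start were taken from RefSeq (GRCm38.p6). They were held for 8 of the 10 genes, all but Hmox1 and Gclc. The windows of the metallothioneins are shown because these genes sit in one cluster. Each metal response element core (TGCACNC or TGCGCNC, on either strand) is in capitals.
Mt1 (chr8:94178839-94179138, + strand): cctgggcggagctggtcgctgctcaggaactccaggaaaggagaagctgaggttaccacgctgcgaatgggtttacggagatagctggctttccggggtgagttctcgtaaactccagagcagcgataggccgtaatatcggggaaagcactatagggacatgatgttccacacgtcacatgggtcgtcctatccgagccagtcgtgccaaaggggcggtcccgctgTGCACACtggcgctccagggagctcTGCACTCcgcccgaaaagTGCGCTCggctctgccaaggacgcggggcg
Mt2 (chr8:94172368-94172667, + strand): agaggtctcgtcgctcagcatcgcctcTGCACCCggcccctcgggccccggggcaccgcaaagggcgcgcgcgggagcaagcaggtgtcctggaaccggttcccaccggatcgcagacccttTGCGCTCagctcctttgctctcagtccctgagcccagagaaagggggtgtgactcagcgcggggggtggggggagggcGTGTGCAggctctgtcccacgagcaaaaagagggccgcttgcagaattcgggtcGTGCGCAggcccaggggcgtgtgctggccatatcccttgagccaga
Mt3 (chr8:94152357-94152656, + strand): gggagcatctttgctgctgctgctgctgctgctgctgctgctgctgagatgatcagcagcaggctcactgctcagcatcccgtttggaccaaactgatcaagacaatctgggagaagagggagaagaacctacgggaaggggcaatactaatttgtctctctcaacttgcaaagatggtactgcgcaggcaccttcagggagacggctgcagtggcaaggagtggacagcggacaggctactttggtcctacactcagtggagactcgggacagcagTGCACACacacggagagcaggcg
The window of Mt1 held 3 such cores, that of Mt2 held 4 and that of Mt3 held 1. Counted from the annotated start, the Mt1 cores began at bases -23, 3 and 21. Those of Mt2 began at -223, -128, -50 and 5, and that of Mt3 at 28. Of 32817 promoter windows of the same length, 25.7% held at least 1 core, 1.97% at least 3 and 0.518% at least 4. Mt2 also had 1 antioxidant response element core (TGACNNNGC, on either strand), which did not overlap a metal element core and which 12.4% of all windows held.

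Among the Nrf2 targets, Gclm, Srxn1 and 1 of 3 windows of Txnrd1 held 1 antioxidant element core each, and the windows of Nqo1 and Slc7a11 held none. Sequence outside these windows, further upstream included, was not searched. The windows of Gclm, which had its lowest level in SSDS-shACOT12 3, and of Srxn1, which had its highest level there, are given with that core in capitals.
Gclm (chr3:122245307-122245606, + strand): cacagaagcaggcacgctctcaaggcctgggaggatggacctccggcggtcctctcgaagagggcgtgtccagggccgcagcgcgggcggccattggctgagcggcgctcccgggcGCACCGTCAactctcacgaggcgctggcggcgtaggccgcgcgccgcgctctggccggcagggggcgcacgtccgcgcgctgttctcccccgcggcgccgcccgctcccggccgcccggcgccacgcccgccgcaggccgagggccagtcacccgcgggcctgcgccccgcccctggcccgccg
Srxn1 (chr2:152105274-152105573, + strand): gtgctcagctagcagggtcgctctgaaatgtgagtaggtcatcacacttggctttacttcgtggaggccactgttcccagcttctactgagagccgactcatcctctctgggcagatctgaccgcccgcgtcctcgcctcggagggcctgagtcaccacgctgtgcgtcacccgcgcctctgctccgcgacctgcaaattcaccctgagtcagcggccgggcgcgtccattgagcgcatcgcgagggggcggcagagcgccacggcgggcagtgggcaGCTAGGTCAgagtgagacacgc
In Gclm the core overlapped 1 of 3 metal element cores of the same window. The antioxidant element core began at base -134 from the RefSeq start in Gclm and at base 29 in Srxn1. A match of letters is a description of the window and not a binding site.

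The libraries held 14656714 to 17694570 counts. Markers of hippocampal neurons summed to 7570 to 10100 CPM (counts relative to the TMM-scaled library total). Choroid plexus markers were uneven, at 17.8 to 46.1 CPM in the SSDS and CSDS libraries, against 564, 174 and 43.2 CPM in Control 1, 2 and 3. On the first principal component of all 16915 tested genes, SSDS-shACOT12 3, SSDS-shACOT12 1 and SSDS-GFP 3 scored 63.1, 37.4 and 35.7, and no other library scored above 5.82. The share of mitochondrial counts was lowest in SSDS-shACOT12 1 (3.23%) and SSDS-shACOT12 3 (4.31%), while the other libraries, SSDS-GFP 3 at 6.65% included, had 6.31% to 9.24%. The knockdown is labelled hepatic, so the hippocampus does not check it; Acot12 was near the detection limit there, with a log2 fold change of -0.39 in SSDS-shACOT12 against SSDS-GFP (edgeR adjusted p = 0.851). The 3 libraries that stand apart, SSDS-shACOT12 3, SSDS-shACOT12 1 and SSDS-GFP 3, are named beside several of the results that they touch.

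The 10 genes spanned a wide range of levels. Per gene length, in the FPKM deposited by the authors, the order over all 12 libraries was Mt3 (536 ± 203), Mt1 (239 ± 59), Srxn1 (31 ± 9.21), Gclc (14.5 ± 1.6), Mt2 (13.1 ± 3.96), Txnrd1 (8.36 ± 0.889), Gclm (6.93 ± 1.65), Hmox1 (3.39 ± 1.57), Nqo1 (2.69 ± 0.469) and Slc7a11 (1.64 ± 0.473; SD over 12 libraries). The ranges of Mt3 and Mt1 overlapped each other and lay above those of the other genes. The range of Srxn1 lay above those of the 7 genes below it, and from Gclc down each gene's range overlapped that of the next. The place of Mt2 in this order depends on how reads that overlap an antisense gene were counted, as described below. Mt3 ranked 36 and Mt1 ranked 129 among the tested genes by mean FPKM. Gclc and Txnrd1 varied least between libraries, with 1.41-fold and 1.39-fold between the highest and lowest CPM, and Hmox1 (4.75-fold) and Mt3 (4.22-fold) varied most.

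**Figure D1:**
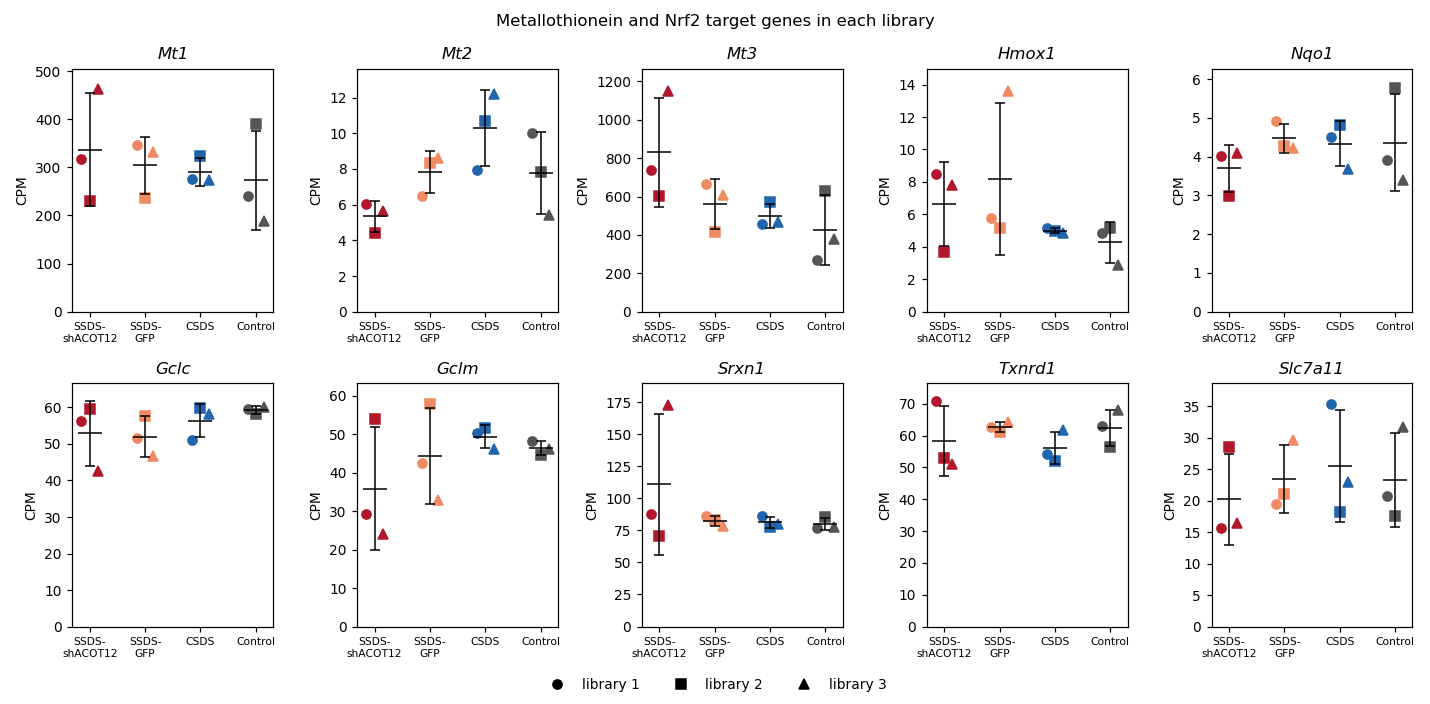
Level of each gene (CPM, linear axis from 0) in the 12 libraries by group; symbols mark the library number and black bars the mean ± SD of 3 libraries. Single SSDS libraries stand out, such as 13.6 CPM of Hmox1 in SSDS-GFP 3 and 173 CPM of Srxn1 in SSDS-shACOT12 3.

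None of the 10 genes passed the test in any of the 4 comparisons (edgeR quasi-likelihood fit of all libraries, Benjamini-Hochberg adjusted p under 0.05 over 16915 genes). For CSDS against control 0 of 10 were called, as were 0% of all genes, and 0 of 10 had an unadjusted p under 0.05, as had 5.87% of all genes. For SSDS-shACOT12 against SSDS-GFP 0 of 10 were called, again with 0% of all genes, and only Mt2 had an unadjusted p under 0.05, as had 4.53% of all genes. For SSDS-GFP against control 0 of 10 were called, with 0.0946% of all genes, and only Hmox1 was under the unadjusted bound, as were 15.2% of all genes. For SSDS-shACOT12 against control 0 of 10 were called, with 0.0828% of all genes, and only Mt3 was under that bound, as were 24.2% of all genes. The DESeq2 Wald test called 0, 0, 0 and 1 of the 10 in these comparisons, the last being Mt3. The comparisons with control share the 3 control libraries. All directions given here for single genes are therefore of differences that did not pass. The fit used a shared estimate of each gene's spread over all 12 libraries, although the groups differed in it. The median SD of log2 CPM was 0.308 in SSDS-shACOT12, 0.246 in SSDS-GFP, 0.157 in CSDS and 0.155 in control. Standard errors and p-values thus rest on this shared spread and not only on the groups compared.

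**Figure D2:**
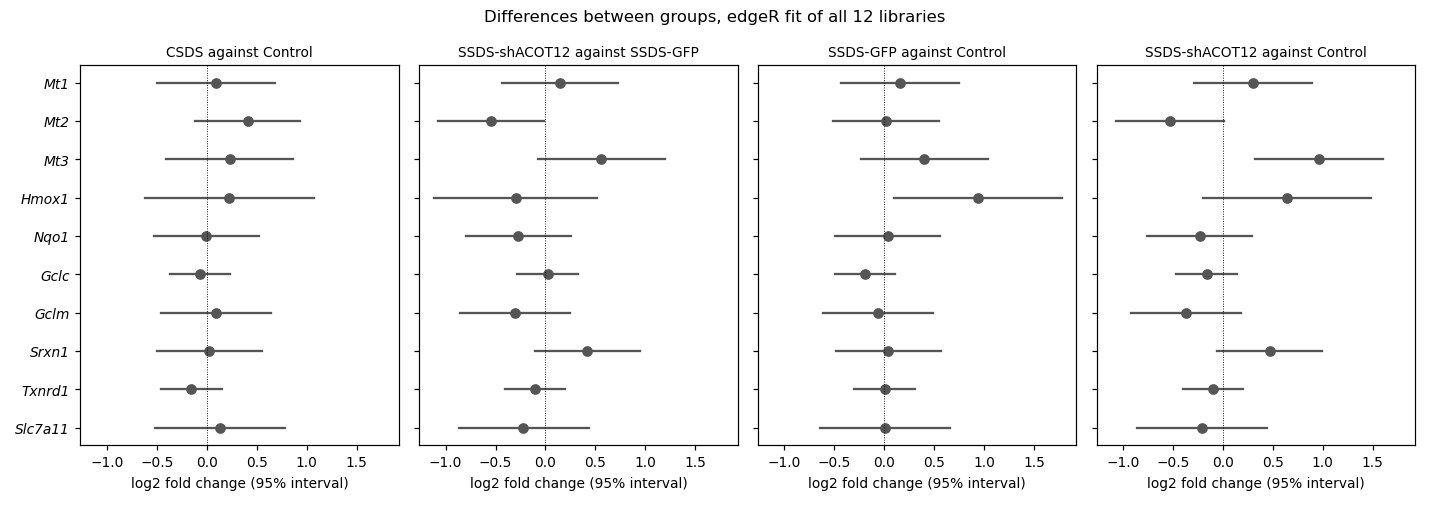
Log2 fold change of each gene with its 95% interval from the edgeR fit, in the 4 comparisons, positive where the first-named group is higher. The intervals that leave out 0 are those of Mt2 in SSDS-shACOT12 against SSDS-GFP (-1.08 to -0.01), Hmox1 in SSDS-GFP against control (0.1 to 1.78) and Mt3 in SSDS-shACOT12 against control (0.32 to 1.6); none of these passed after adjustment.

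Mt3 was the metallothionein with the largest difference between groups. Its level was 737, 605 and 1150 CPM in SSDS-shACOT12 1, 2 and 3, and 666, 415 and 606 CPM in SSDS-GFP 1, 2 and 3. It was 457, 572 and 465 CPM in CSDS and 272, 628 and 377 CPM in control. SSDS-shACOT12 3 was the highest of the 12 libraries and Control 1 the lowest, and SSDS-shACOT12 overlapped SSDS-GFP and control. SSDS-shACOT12 averaged 830 ± 283 CPM and control 426 ± 183 CPM (SD, n = 3 each), a log2 fold change of 0.96 ± 0.30 (SE, edgeR adjusted p = 0.0907). DESeq2 gave 0.95 with adjusted p = 0.0214, in a test that called 1571 of all tested genes. With 1 library left out the edgeR adjusted p lay between 0.0181 (without SSDS-shACOT12 2) and 0.342 (without SSDS-shACOT12 3, where the log2 fold change was 0.65). Without SSDS-shACOT12 2, 4232 of all genes tested were called in this comparison. With no filter on low counts the edgeR adjusted p was 0.000102, in a fit that called 1741 of all genes tested. Without the 3 libraries that stand apart 1 SSDS-shACOT12 library is left, so no p is given for that fit. Against SSDS-GFP the log2 fold change was 0.56 ± 0.29 (edgeR adjusted p = 0.803), and SSDS-GFP exceeded control by 0.40 ± 0.29 (edgeR adjusted p = 0.541). CSDS differed from control by 0.23 ± 0.29 (edgeR adjusted p = 0.958), and by 0.62 without Control 2 or -0.01 without Control 1.

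The libraries of all 4 groups overlapped for Mt1. It stood at 317, 230 and 462 CPM in SSDS-shACOT12, 347, 236 and 331 CPM in SSDS-GFP, 275, 323 and 273 CPM in CSDS, and 241, 389 and 189 CPM in control. The highest library was again SSDS-shACOT12 3, and the control libraries alone spanned 189 to 389 CPM. Log2 fold changes were 0.15 ± 0.27 for SSDS-shACOT12 against SSDS-GFP, 0.16 ± 0.27 for SSDS-GFP against control, 0.30 ± 0.27 for SSDS-shACOT12 against control and 0.09 ± 0.27 for CSDS against control, with edgeR adjusted p of 0.508 or more. The last of these was -0.11 without Control 3 and 0.44 without Control 2.

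The ratio of Mt3 to Mt1, chosen after its values were seen, was close among the libraries of each group but control. Mt3 FPKM per Mt1 FPKM was 2.72, 3.07 and 2.9 in SSDS-shACOT12 1, 2 and 3, and 2.25, 2.06 and 2.14 in SSDS-GFP. It was 1.94, 2.07 and 1.99 in CSDS and 1.32, 1.89 and 2.33 in control. All 3 SSDS-shACOT12 libraries lay above all other 9, including SSDS-shACOT12 2, which is not among the libraries that stand apart. The means were 2.9 ± 0.175 in SSDS-shACOT12, 2.15 ± 0.0954 in SSDS-GFP, 2 ± 0.0656 in CSDS and 1.85 ± 0.506 in control (SD, n = 3 each). Because the ratio was picked for this pattern, it is given as a description with no test.

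**Figure D3:**
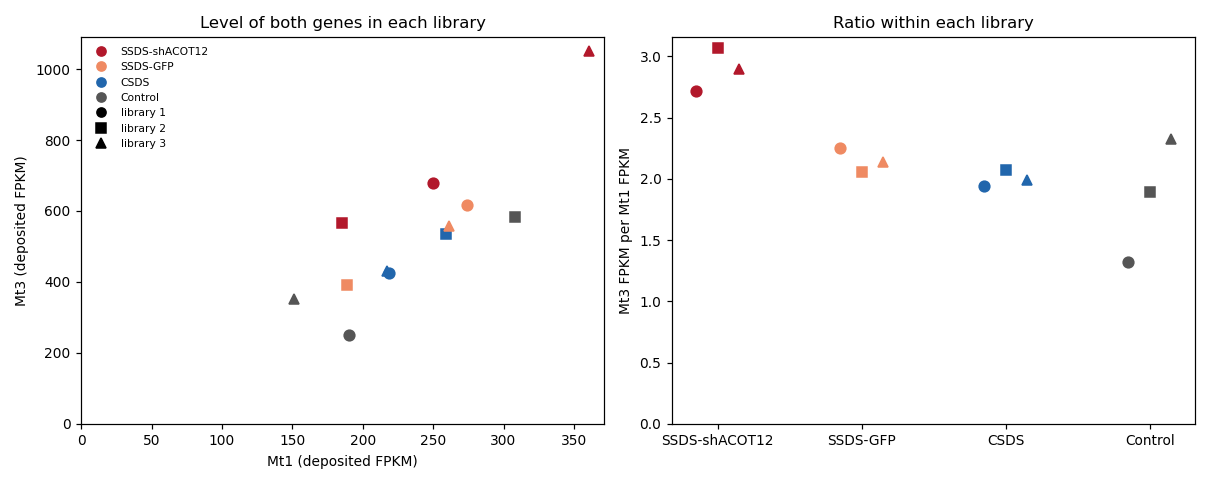
Left, Mt3 against Mt1 in deposited FPKM, 1 point per library, both axes from 0. Right, Mt3 FPKM per Mt1 FPKM by group; SSDS-shACOT12 libraries lie at 2.72 to 3.07 and the highest of the other libraries, Control 3, at 2.33.

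Astrocytes express metallothioneins, so their markers are given beside these values. The 12 astrocyte markers summed to 4010, 4550 and 5480 CPM in SSDS-shACOT12 1, 2 and 3, 4190 to 4610 CPM in SSDS-GFP, 4240 to 4680 CPM in CSDS and 4430 to 5140 CPM in control. The sum of SSDS-shACOT12 3 was the highest through Gfap; as a mean over the markers of each one's log2 CPM minus its mean over the 12 libraries (the mean log2 deviation, which weights genes alike), SSDS-shACOT12 3 was at 0.13 and Control 2 was highest at 0.18. Gfap, an astrocyte filament that rises in reactive astrocytes, was at 396, 221 and 1190 CPM in SSDS-shACOT12 1, 2 and 3, and at 267 to 322 CPM in SSDS-GFP, 247 to 380 CPM in CSDS and 323 to 381 CPM in control. Slc4a4, a bicarbonate transporter of astrocytes, averaged 98.1 ± 20.9 CPM in SSDS-shACOT12 and 161 ± 8.17 CPM in control (SD, n = 3; log2 fold change -0.71 ± 0.16, edgeR adjusted p = 0.0531), while S100b, a calcium-binding protein, averaged 120 ± 9.08 CPM in SSDS-shACOT12 and 95.5 ± 11.2 CPM in control (0.33 ± 0.13, edgeR adjusted p = 0.158). Of the 12 markers 4 were higher and 8 lower in SSDS-shACOT12 than in control (median log2 fold change -0.20). EdgeR called none, beside 0.0828% of all tested genes. An unadjusted p under 0.05 was found for 2 of the 12, and for 24.2% of all tested genes. In a bulk sample, more cells of a type and more RNA per cell cannot be told apart, and the part of astrocytes in the Mt1 and Mt3 levels was not tested.

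Mt2 had far fewer counts than Mt1 and Mt3, and its lowest group mean was in SSDS-shACOT12, where theirs was highest. It was at 6.06, 4.39 and 5.64 CPM in SSDS-shACOT12, 6.50, 8.33 and 8.63 CPM in SSDS-GFP, 7.95, 10.7 and 12.2 CPM in CSDS, and 10.0, 7.85 and 5.41 CPM in control. All SSDS-shACOT12 libraries lay below all SSDS-GFP libraries, and overlapped control. SSDS-shACOT12 averaged 5.36 ± 0.867 CPM and SSDS-GFP 7.82 ± 1.16 CPM (SD, n = 3 each), a log2 fold change of -0.55 ± 0.25 (SE, unadjusted p = 0.0476, edgeR adjusted p = 0.803). Mt2 and Nqo1 were the 2 of 10 genes whose SSDS-shACOT12 and SSDS-GFP libraries did not overlap, as was the case for 4.81% of all tested genes. CSDS averaged 10.3 ± 2.15 CPM and control 7.76 ± 2.3 CPM, a log2 fold change of 0.41 ± 0.24 (edgeR adjusted p = 0.889). SSDS-GFP differed from control by 0.02 ± 0.25 (edgeR adjusted p = 0.984).

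The level of Mt2 relative to its neighbour depends on how overlapping reads were counted. Each library held 22.4 to 82 Mt1 counts per Mt2 count, from 69 to 202 counts of Mt2 and 3181 to 7466 counts of Mt1. The files also list Gm45774, an antisense gene of 1 exon on the - strand (chromosome 8, 94170748 to 94173412), with 5 to 21 counts per library. It covers 432 of the 588 exon bases of Mt2 (73.5%), which leaves 156 bases at the 3′ end outside it, and it covers no exon base of Mt1 or Mt3. The name of the library kit does not mark strand, and the strand setting of the counting is not given in the sources used here. Without strand, reads of a gene and of its antisense partner cannot be told apart. The part of this overlap in the Mt2 counts was not tested, so Mt2 values are best compared between libraries and not with Mt1.

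**Figure D4:**
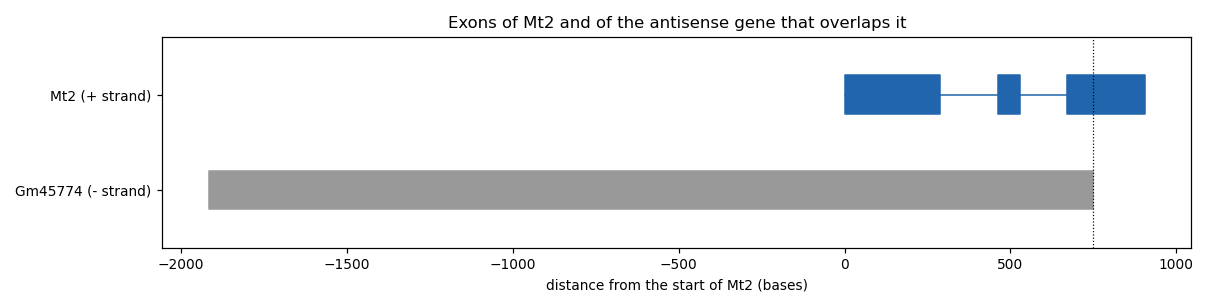
Exons of Mt2 (blue boxes, + strand) and of the antisense gene Gm45774 (grey box, - strand), by distance from the GENCODE M21 start of Mt2 in bases. The dotted line marks the end of Gm45774; 156 of 588 exon bases of Mt2 lie to its right.

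Hmox1, which breaks haem down to biliverdin, iron and carbon monoxide, had its highest levels in 3 of the 6 SSDS libraries. It was at 8.47, 3.69 and 7.80 CPM in SSDS-shACOT12, 5.78, 5.18 and 13.6 CPM in SSDS-GFP, 5.14, 4.99 and 4.83 CPM in CSDS, and 4.84, 5.13 and 2.86 CPM in control. The 3 highest libraries, SSDS-GFP 3, SSDS-shACOT12 1 and SSDS-shACOT12 3, were the 3 that stand apart on the first principal component. SSDS-GFP averaged 8.17 ± 4.67 CPM and control 4.27 ± 1.24 CPM (SD, n = 3 each), a log2 fold change of 0.94 ± 0.39 (SE, unadjusted p = 0.0305, edgeR adjusted p = 0.279). Without SSDS-GFP 3 the log2 fold change was 0.37. SSDS-shACOT12 exceeded control by 0.64 ± 0.39 (edgeR adjusted p = 0.321) and was below SSDS-GFP by a log2 fold change of -0.30 ± 0.38 (edgeR adjusted p = 0.842), which was 0.28 without SSDS-GFP 3. CSDS differed from control by 0.22 ± 0.39 (edgeR adjusted p = 0.978), and the CSDS libraries lay within 4.83 to 5.14 CPM.

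Haem reaches tissue with blood, and macrophages express Hmox1, so markers of both are given. The 5 red cell genes summed to 103, 92.8 and 205 CPM in SSDS-shACOT12, 119, 88.1 and 67.1 CPM in SSDS-GFP, 386, 332 and 345 CPM in CSDS and 87.8, 120 and 111 CPM in control. The CSDS libraries held the most red cell RNA, with Hmox1 at 4.83 to 5.14 CPM against 2.86 to 5.13 CPM in control, and SSDS-GFP 3 held the least red cell RNA and the most Hmox1. The 12 microglia and macrophage markers summed to 444, 342 and 451 CPM in SSDS-shACOT12, 419, 340 and 436 CPM in SSDS-GFP, 386 to 446 CPM in CSDS and 364 to 422 CPM in control. Fibroblast markers of the meninges and vessels summed to 57.2, 172 and 78.2 CPM in SSDS-shACOT12, 83.3, 57.3 and 156 CPM in SSDS-GFP, 127, 76.9 and 66.6 CPM in CSDS and 81.3, 90.5 and 80.5 CPM in control. The sums of SSDS-shACOT12 2 and SSDS-GFP 3 were mostly Dcn, a matrix proteoglycan, at 106 and 93.8 CPM. By mean log2 deviation the list was highest in CSDS 1 (0.9), with SSDS-GFP 3 at 0.25 and SSDS-shACOT12 2 at 0.14. Of 10 endothelial markers 7 were lower and 3 higher in SSDS-GFP than in control (median -0.44), with 0 called by edgeR (0.0946% of all tested genes) and 4 at an unadjusted p under 0.05 (15.2% of all tested genes). The part of these cell types in the Hmox1 level was not tested.

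Gclc and Gclm encode the catalytic and the modifier subunit of glutamate-cysteine ligase, the first and rate-limiting enzyme of glutathione synthesis. Gclm was at 29.4, 54.1 and 24.2 CPM in SSDS-shACOT12, 42.5, 57.8 and 32.9 CPM in SSDS-GFP, 50.4, 51.7 and 46.1 CPM in CSDS, and 48.3, 44.6 and 46.2 CPM in control. The 3 lowest libraries, SSDS-shACOT12 3, SSDS-shACOT12 1 and SSDS-GFP 3, were the same 3 that had the most Hmox1. SSDS-shACOT12 averaged 35.9 ± 15.9 CPM and SSDS-GFP 44.4 ± 12.5 CPM (SD, n = 3 each), a log2 fold change of -0.31 ± 0.26 (SE, edgeR adjusted p = 0.803). Against control, at 46.4 ± 1.89 CPM, SSDS-shACOT12 had a log2 fold change of -0.37 ± 0.26 (edgeR adjusted p = 0.384). Both differences passed without SSDS-shACOT12 2, at -0.74 against SSDS-GFP (edgeR adjusted p = 0.0452) and -0.80 against control (edgeR adjusted p = 0.0139). Among all genes tested without that library, 985 and 4232 were called in these comparisons. With the 3 libraries that stand apart left out, the 2 log2 fold changes of Gclm were 0.11 and 0.23, from 1 remaining SSDS-shACOT12 library, assumed to vary like the other groups. SSDS-GFP differed from control by -0.06 ± 0.26 and CSDS by 0.09 ± 0.25 (edgeR adjusted p = 0.932 and 0.990). The SD in CSDS was 2.96 CPM, so the standard error for CSDS also carries the spread of the SSDS groups.

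Gclc was steadier than its partner. It was at 56.4, 59.7 and 42.7 CPM in SSDS-shACOT12, 51.6, 57.8 and 46.6 CPM in SSDS-GFP, 51.2, 59.9 and 58.1 CPM in CSDS, and 59.7, 58.1 and 60.1 CPM in control. SSDS-shACOT12 3 and SSDS-GFP 3 were the lowest of the 12, and all SSDS-GFP libraries lay below all control libraries. Non-overlap of SSDS-GFP with control was found for 2 of the 10 genes, Gclc and Hmox1, and for 23.9% of all tested genes. The log2 fold change of SSDS-GFP against control was -0.19 ± 0.14 (SE, edgeR adjusted p = 0.540), and for the other 3 comparisons it ran from -0.16 to 0.03. The ratio of Gclc to Gclm, both in FPKM, was 3.2, 1.84 and 2.95 in SSDS-shACOT12, 2.03, 1.67 and 2.36 in SSDS-GFP, 1.7 to 2.11 in CSDS and 2.06 to 2.18 in control. It was highest in the 3 libraries that stand apart, whose part in the levels of Hmox1, Gclm and Gclc was not tested.

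**Figure D5:**
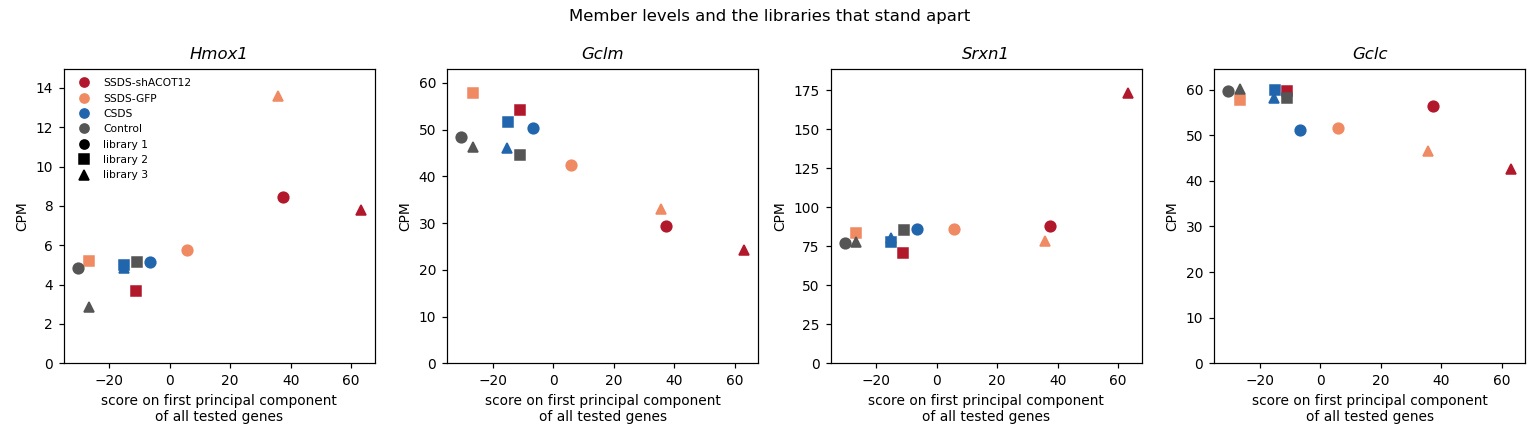
CPM of Hmox1, Gclm, Srxn1 and Gclc (linear axes from 0) against each library's score on principal component 1 of all tested genes. The libraries at 35.7, 37.4 and 63.1 hold the 3 highest values of Hmox1 and the 3 lowest of Gclm, while Srxn1 is high in the library at 63.1 alone.

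Srxn1, which restores overoxidised peroxiredoxins, was at 70.9 to 88.0 CPM in 11 libraries and higher in 1. It was at 88.0, 70.9 and 173 CPM in SSDS-shACOT12, 86.1, 83.2 and 78.3 CPM in SSDS-GFP, 86.2, 77.6 and 80.0 CPM in CSDS, and 77.1, 85.5 and 77.7 CPM in control. SSDS-shACOT12 3, at 173 CPM, was also the highest library for Mt1, Mt3 and Gfap. SSDS-shACOT12 averaged 111 ± 54.9 CPM and SSDS-GFP 82.5 ± 3.93 CPM (SD, n = 3 each), a log2 fold change of 0.42 ± 0.24 (SE, edgeR adjusted p = 0.803). It was -0.05 without SSDS-shACOT12 3 and 0.65 without SSDS-shACOT12 2. Against control the values were 0.47 ± 0.24 (edgeR adjusted p = 0.253), -0.02 without SSDS-shACOT12 3, and 0.70 without SSDS-shACOT12 2 (edgeR adjusted p = 0.0270). Without SSDS-shACOT12 2, 4232 of all genes tested were called against control. SSDS-GFP and CSDS differed from control by 0.04 ± 0.24 and 0.02 ± 0.24 (edgeR adjusted p = 0.953 and 0.998). The SD was 3.93, 4.44 and 4.72 CPM in SSDS-GFP, CSDS and control, so these standard errors also carry the spread of SSDS-shACOT12.

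Txnrd1, the cytosolic reductase that keeps thioredoxin reduced, ranged from 51.1 to 70.9 CPM, with both ends in SSDS-shACOT12 libraries. It averaged 58.3 ± 10.9 CPM in SSDS-shACOT12, 62.7 ± 1.47 CPM in SSDS-GFP, 56.1 ± 5.18 CPM in CSDS and 62.4 ± 5.72 CPM in control (SD, n = 3 each). Its log2 fold changes lay between -0.16 and 0.01 in the 4 comparisons. The 95% interval for CSDS against control, -0.46 to 0.15, was among the narrowest of the 10 genes. Slc7a11, the subunit of the cystine importer that feeds glutathione synthesis, differed between libraries of the same group more than between groups. It was at 15.6, 28.5 and 16.4 CPM in SSDS-shACOT12, 19.5, 21.1 and 29.6 CPM in SSDS-GFP, 35.3, 18.2 and 23.0 CPM in CSDS, and 20.7, 17.5 and 31.6 CPM in control. Its log2 fold changes lay between -0.22 ± 0.30 (SSDS-shACOT12 against SSDS-GFP) and 0.13 ± 0.30 (CSDS against control), with edgeR adjusted p of 0.693 or more.

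Nqo1, a quinone reductase often used as a readout of Nrf2, was measured with 47 to 89 counts per library. It averaged 3.7 ± 0.614 CPM in SSDS-shACOT12, 4.47 ± 0.382 CPM in SSDS-GFP, 4.34 ± 0.588 CPM in CSDS and 4.36 ± 1.25 CPM in control (SD, n = 3 each). The 3 SSDS-shACOT12 libraries, at 4.02, 2.99 and 4.09 CPM, all lay below the 3 SSDS-GFP libraries, at 4.91, 4.27 and 4.23 CPM. The log2 fold change between them was -0.27 ± 0.24 (SE, edgeR adjusted p = 0.803), with a 95% interval of -0.80 to 0.26. CSDS differed from control by -0.01 ± 0.24 and SSDS-GFP by 0.04 ± 0.24 (edgeR adjusted p = 0.999 and 0.961). Of the 10 genes, 0 separated CSDS from control or SSDS-shACOT12 from control without overlap, as 20.3% and 25.5% of all tested genes did.

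Of the 10 genes, 7 were higher and 3 lower in CSDS than in control, with a median log2 fold change of 0.09; 50.3% of all tested genes were higher, with a median of 0.001. For SSDS-shACOT12 against SSDS-GFP 4 were higher and 6 lower (median -0.16; all genes 52% higher, median 0.014), and for SSDS-GFP against control 8 were higher and 2 lower (median 0.03; all genes 50.8% higher, median 0.006). For SSDS-shACOT12 against control 4 were higher, namely Mt1, Mt3, Hmox1 and Srxn1, and 6 lower (median -0.13; all genes 51.3% higher, median 0.013). The 7 Nrf2 targets alone had medians of -0.22 for SSDS-shACOT12 against SSDS-GFP and 0.02 for CSDS against control.

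The regulators of Nrf2 were also measured. Nfe2l2, which encodes Nrf2, was at 12.3, 11.5 and 12.1 CPM in SSDS-shACOT12, 13.3, 14.7 and 13.7 CPM in SSDS-GFP, 15, 10 and 14.2 CPM in CSDS, and 12.7, 12.5 and 15.5 CPM in control. All SSDS-shACOT12 libraries lay below all SSDS-GFP libraries, with a log2 fold change of -0.22 (edgeR adjusted p = 0.803), and overlapped control. Of all tested genes, 4.81% had no overlap between these SSDS groups, in either direction. Keap1, the inhibitor of Nrf2, differed by 0.09 in SSDS-shACOT12 against SSDS-GFP and by -0.12 in CSDS against control (edgeR adjusted p = 0.877 and 0.948). Of 8 regulators, which include Bach1, a repressor at the same elements, the adaptor Sqstm1, the ubiquitin ligase scaffold Cul3 and 3 small Maf genes, edgeR called 0 in each comparison. Of all tested genes it called 0.0946% in SSDS-GFP and 0.0828% in SSDS-shACOT12 against control, and 0% in the other comparisons. The only regulator with an unadjusted p under 0.05 was Sqstm1 in SSDS-shACOT12 against control (0.24 ± 0.11, edgeR adjusted p = 0.204), where 24.2% of all tested genes were under that bound. Cul3 averaged 114 ± 36.6 CPM in SSDS-shACOT12 and 154 ± 12.2 CPM in control (-0.43 ± 0.22, edgeR adjusted p = 0.233). It was lowest in the 3 libraries that stand apart. SSDS-shACOT12 1 and 3 were at 98.4 and 87.6 CPM and SSDS-GFP 3 at 106 CPM, while SSDS-shACOT12 2 was at 156 CPM. Mafk averaged 12.4 ± 0.81 CPM in CSDS and 15.8 ± 2.09 CPM in control (-0.35 ± 0.17, edgeR adjusted p = 0.867).

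Other Nrf2 targets and antioxidant enzymes were mostly higher in both SSDS groups and in CSDS than in control, but none passed the test. Of 31 tested genes of this list, edgeR called 0 in every comparison. Of all tested genes it called 0.0946% in SSDS-GFP and 0.0828% in SSDS-shACOT12 against control, and 0% in the other comparisons. In SSDS-GFP against control 24 were higher and 7 lower, with a median log2 fold change of 0.23, and 11 had an unadjusted p under 0.05, as had 15.2% of all tested genes. In SSDS-shACOT12 against control 26 were higher and 5 lower, with a median of 0.34, and 17 were under that bound, as were 24.2% of all tested genes. Cbr1, a carbonyl reductase, averaged 86.5 ± 11.9 CPM in SSDS-shACOT12 and 55.5 ± 5.14 CPM in control (SD, n = 3; log2 fold change 0.64 ± 0.16, edgeR adjusted p = 0.0599). Txn1, the thioredoxin that Txnrd1 reduces, averaged 96.7 ± 22.9 CPM in SSDS-shACOT12 and 64.8 ± 2.36 CPM in control (0.58 ± 0.16, edgeR adjusted p = 0.0743). Gsta4, a glutathione transferase for lipid aldehydes, averaged 54.8 ± 4.88 CPM in SSDS-GFP and 37.5 ± 4.71 CPM in control (0.55 ± 0.15, edgeR adjusted p = 0.130). In CSDS Gsta4 averaged 50.1 ± 4.6 CPM (0.42 ± 0.15 against control, edgeR adjusted p = 0.849). The summed level of the list was 6170, 4870 and 6980 CPM in SSDS-shACOT12, 6780, 4920 and 5680 CPM in SSDS-GFP, 5210, 5120 and 4780 CPM in CSDS and 5200, 5080 and 4600 CPM in control. Fth1, the ferritin heavy chain, made up 2350 to 3910 CPM of these sums. As a mean log2 deviation over the 31 genes, the libraries were at 0.06, 0.00 and 0.27 in SSDS-shACOT12, 0.13, -0.07 and 0.11 in SSDS-GFP, -0.03, -0.02 and -0.07 in CSDS and -0.10, -0.08 and -0.20 in control. In CSDS against control 23 of the 31 genes were higher and 8 lower, with a median of 0.09. An unadjusted p under 0.05 was found there for 2, and for 5.87% of all tested genes. Between SSDS-shACOT12 and SSDS-GFP the median was 0.07.

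Genes of zinc and metal handling were mostly lower in both SSDS groups than in control, and none passed. Of 15 tested genes, 12 were lower and 3 higher both in SSDS-GFP (median log2 fold change -0.24) and in SSDS-shACOT12 (-0.16) against the shared control libraries. In these comparisons edgeR called 0, beside 0.0946% and 0.0828% of all tested genes. An unadjusted p under 0.05 was found for 5 and 6, beside 15.2% and 24.2% of all tested genes. In CSDS against control 10 were lower and 5 higher (median -0.03), with 2 at an unadjusted p under 0.05, beside 5.87%. Slc30a1, the zinc exporter that Mtf1 induces together with Mt1 and Mt2, averaged 29.3 ± 6.2 CPM in SSDS-shACOT12 and 43 ± 4.07 CPM in control (SD, n = 3; log2 fold change -0.55 ± 0.16, edgeR adjusted p = 0.0794). Slc30a4, another zinc exporter, averaged 38.1 ± 8.08 CPM in SSDS-shACOT12 and 57.2 ± 5.03 CPM in control (-0.59 ± 0.18, edgeR adjusted p = 0.0853). Both exporters were lowest in the 3 libraries that stand apart. Slc30a4 was at 37.5, 46.5 and 30.4 CPM in SSDS-shACOT12 1, 2 and 3, and at 40.3 CPM in SSDS-GFP 3. Slc30a1 was at 22.5, 34.6 and 30.8 CPM in the same SSDS-shACOT12 libraries, and at 31.1 CPM in SSDS-GFP 3. Cp, the copper-carrying ferroxidase ceruloplasmin, averaged 8.08 ± 0.206 CPM in SSDS-shACOT12 and 16.9 ± 4.34 CPM in control (-1.07 ± 0.24, edgeR adjusted p = 0.0532). It was also lower than control in CSDS, at 8.69 ± 3.02 CPM (-0.96 ± 0.24, edgeR adjusted p = 0.849), and in SSDS-GFP, at 9.25 ± 0.977 CPM (-0.87 ± 0.24, edgeR adjusted p = 0.136). Cp is also made by choroid plexus, whose markers were high in 2 control libraries, and the part of that tissue in the Cp level was not tested. Mtf1 itself differed by -0.03 in SSDS-shACOT12 against control (edgeR adjusted p = 0.911) and by 0.05 against SSDS-GFP (edgeR adjusted p = 0.922).

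Glucocorticoid-induced genes are given because glucocorticoids raise Mt1 and Mt2. Of 14 tested genes all were lower in CSDS than in control, with a median log2 fold change of -0.41, 4 at an unadjusted p under 0.05 and 0 called by edgeR. Of all tested genes 5.87% were under that bound, 0% were called and 50.3% were higher in CSDS. In SSDS-shACOT12 against control 3 of the 14 were higher and 11 lower (median -0.46), with 5 under 0.05 beside 24.2% of all tested genes. In that comparison 0 were called, beside 0.0828% of all tested genes. In SSDS-GFP against control 6 were higher and 8 lower (median -0.11), with 3 under 0.05 beside 15.2% of all tested genes. Against SSDS-GFP, SSDS-shACOT12 had 3 higher and 11 lower (median -0.16), with 2 under 0.05 beside 4.53%, and 0 called beside 0% of all tested genes. Their summed level was 502 to 577 CPM in CSDS and 609, 962 and 602 CPM in control, with the high value in Control 2, which was also the control library with the most Mt1 and Mt3. As a mean log2 deviation the list was at -0.26, -0.30 and -0.27 in CSDS and at 0.13, 0.88 and -0.31 in control, so the libraries overlapped. Plin4, a lipid droplet coat protein, was at 3.88, 0.987 and 1.33 CPM in CSDS and at 11.8, 42.4 and 1.61 CPM in control. Zbtb16, a transcription factor, averaged 22.1 ± 7.3 CPM in SSDS-shACOT12 and 33.9 ± 2.64 CPM in control (SD, n = 3; log2 fold change -0.62 ± 0.22, edgeR adjusted p = 0.117). In SSDS-GFP against control 1 was called, Dusp1, a phosphatase that shuts off MAP kinases, beside 0.0946% of all tested genes. Dusp1 averaged 23.4 ± 3.58 CPM in SSDS-GFP and 12 ± 1.16 CPM in control (SD, n = 3, log2 fold change 0.96 ± 0.16, edgeR adjusted p = 0.0440). In SSDS-shACOT12 it averaged 20.6 ± 2.69 CPM (0.77 ± 0.16 against control, edgeR adjusted p = 0.0531).

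By a fixed rule, the genes whose log2 CPM was most like that of 2 members over the 12 libraries were taken from the 13637 tested genes that averaged 1 or more on that scale. For Hmox1 these were H2-T22 (Pearson r = 0.941), Mif4gd (0.915), Syngr2 (0.911), Osbpl7 (0.906) and Alad (0.900), the last of which encodes an enzyme of haem synthesis. For Mt2 they were 4833413G10Rik (0.827), Kank4 (0.808), Pde4c (0.807), Rpl10a-ps1 (0.785) and Hdac1 (0.785). These are the highest of 13637 values, given as descriptions without a test, and the 3 libraries that stand apart weigh on those of Hmox1.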

How the data were processed

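Per the labels, 1 µg of total RNA per library was prepared with the NEBNext Ultra RNA kit. Per the submitters' processing notes, HISAT2 2.0.5, featureCounts 1.5.0-p3, DESeq2 and mm10 were used; strand setting, annotation release and filters are not given in the sources used here. The counts, as deposited, are whole numbers and not normalized; FPKM, computed by the authors per gene length and library size, serve here only for levels between genes and ratios. Gene length is an other deposited value, in bases.

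With edgeR 4.0.16 under R 4.3.3, filterByExpr left 16915 genes at a minimum count of 10 and a minimum total of 15, and TMM scaled the libraries. A quasi-likelihood model by group was fitted to all 12 libraries, tested 2-sided with Benjamini-Hochberg adjustment over all genes, and checked on simulated data. Errors of fold changes are standard errors. CPM are of the scaled libraries; the SD is over 3 libraries. For 27 genes, symbols turned into dates were restored by ID. Alternatives were DESeq2 1.42.0 (size factors or Wald test), other filters, fewer libraries and a replicate block. 2 further alternatives, chosen after seeing the data, were a block among the SSDS libraries alone and leaving out the 3 libraries that stand apart. Replicates differed beyond counting noise in all groups (chi-square per degree of freedom 7.13 to 86.6). What a replicate number shares is not given; deviations of same-numbered SSDS-shACOT12 and SSDS-GFP libraries correlated at 0.196, 0.419 and 0.353, all over the bound of 0.1, so these were treated as pairs in one alternative, and no other comparison had all 3 pairs over it.

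The genes and the 13 lists were chosen with earlier results of these data known. Named beside the 10 genes are up to 3 genes per list with the smallest p, genes that bear on a result (chosen after their values were seen: Nfe2l2, Keap1, Mtf1, Acot12 and the ratio of Mt3 to Mt1), and the 5 genes most like Mt2 and Hmox1. Coordinates are mm10; coding sequences and exons are from GENCODE M21, whose coordinates of Mt1, Mt2 and Mt3 equal those of the files, and promoters from RefSeq GRCm38.p6.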

Additional observations from a re-analysis of the deposited data

How the results depend on the processing

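Of 520 values of the log2 fold change of single genes under the alternatives, 460 kept their sign and side of the threshold, 54 changed sign and 6 newly passed. None of the 10 genes passed in the main test, so no change of sign could involve a passing result. The newly passing ones were Mt3 in SSDS-shACOT12 against control with no filter (0.94), with the DESeq2 Wald test (0.95) and without SSDS-shACOT12 2 (1.14), and, without SSDS-shACOT12 2, Srxn1 in that comparison (0.70) and Gclm in it (-0.80) and against SSDS-GFP (-0.74). The number of the 10 genes called in SSDS-shACOT12 against control was 1 with no filter and 1 with DESeq2, instead of 0. Leaving out 1 library in turn gave 0 to 3 in that comparison and 0 to 1 in SSDS-shACOT12 against SSDS-GFP. The count over all genes varied far more. For CSDS against control it was 0, with 132 under no filter, 6 with DESeq2, 84 on the 6 libraries compared, and 0 to 1 when 1 library was left out. For SSDS-shACOT12 against SSDS-GFP it was 0, with 108 under no filter, 20 without the 3 libraries that stand apart, and 0 to 985 when 1 library was left out (985 without SSDS-shACOT12 2). For SSDS-GFP against control it was 16, with 608 under no filter, 9 with the replicate block, 527 with DESeq2, 34 on the 6 libraries, 216 without the 3 libraries, and 4 to 15 when 1 was left out (4 without SSDS-GFP 1 or Control 1). For SSDS-shACOT12 against control it was 14, with 1741 under no filter, 350 with at least 50 counts in 3 libraries, 3 with the replicate block, 1571 with DESeq2, 0 on the 6 libraries, 735 without the 3 libraries, and 1 to 4232 when 1 was left out (leaving out SSDS-shACOT12 2 gave 4232, its library 1 gave 302, library 3 or Control 1 gave 1, and Control 2 or Control 3 gave 2). The causes were not tested. The replicate block, for all 12 libraries or for the SSDS libraries alone, changed no call among the 10 genes.

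Signs changed without the 3 libraries that stand apart as follows, with 1 remaining SSDS-shACOT12 library, assumed to vary like the other groups. In SSDS-shACOT12 against SSDS-GFP, Gclm became 0.11, Mt1 -0.33, Slc7a11 0.50 and Srxn1 -0.25. In SSDS-GFP against control, Gclm became 0.12, Mt2 -0.05, Slc7a11 -0.19 and Txnrd1 -0.0056. In SSDS-shACOT12 against control, Gclc became 0.02, Gclm 0.23, Hmox1 -0.19, Mt1 -0.23, Slc7a11 0.30 and Srxn1 -0.16. Values near 0 also changed sign with the filter in SSDS-GFP against control (Slc7a11 -0.0038 with none and -0.0033 at 50 counts, Txnrd1 -0.0059 and -0.0093) and in CSDS against control (Nqo1 0.0013 with DESeq2 size factors and 0.0023 with its Wald test). With 1 library left out, signs varied in CSDS against control for Mt1 (-0.11 to 0.44), Mt3 (-0.01 to 0.62), Nqo1 (-0.15 to 0.26), Slc7a11 (-0.18 to 0.43) and Srxn1 (-0.02 to 0.08). They varied in SSDS-shACOT12 against SSDS-GFP for Gclc (-0.08 to 0.16), Hmox1 (-0.55 to 0.28), Mt1 (-0.15 to 0.35) and Srxn1 (-0.05 to 0.65). They varied in SSDS-GFP against control for Gclm (-0.29 to 0.12), Mt1 (-0.05 to 0.50), Mt2 (-0.19 to 0.24), Nqo1 (-0.11 to 0.29), Slc7a11 (-0.19 to 0.30), Srxn1 (-0.0028 to 0.10) and Txnrd1 (-0.06 to 0.07). They varied in SSDS-shACOT12 against control for Mt1 (-0.004 to 0.64), Nqo1 (-0.39 to 0.02), Slc7a11 (-0.55 to 0.08) and Srxn1 (-0.02 to 0.70). Depth limits Mt2, Hmox1 and Nqo1 most, whose lowest library had 69, 48 and 47 counts.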
